A study of Mus musculus with 6 samples.

Results

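The genes described here are 43 interferon-stimulated genes of the mouse, from a list chosen with earlier results of these data known. They were found by matching the Ensembl identifiers of the deposited gene tables to GRCm38 gene symbols. The tables list 55487 genes, and all 43 interferon-stimulated genes were in them. They were measured by RNA-seq in 6 libraries of untreated mouse embryonic fibroblasts (MEFs), connective-tissue cells grown out of embryos. The groups were a knockout (KO) and a wild type (WT), each with 1 library at passage 2, 1 at passage 3 and 1 at passage 4, where a passage means that the cells were lifted off and plated again. Neither the gene that was knocked out nor the mouse strain, the age of the embryos or their number per culture is named in the labels, so the targeted gene could not be checked. A genotype's 3 libraries may stem from a single culture, so each p-value measures the spread between these libraries, which may be technical.

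Interferons are secreted proteins that cells release on sensing viral or other foreign nucleic acid. Type I interferon binds the IFNAR1 and IFNAR2 receptor chains, whose kinases activate ISGF3, a transcription factor that contains STAT2 and IRF9. It binds the interferon-stimulated response element (ISRE) in the promoters of many interferon-stimulated genes. Interferon gamma acts through gamma-activated sites (GAS), and drives the large GTPases in particular. Fibroblasts make interferon beta, respond to it, and hold many of these transcripts at a low tonic level without infection.

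The genes were put into 4 groups by what they are known to do. The 11 regulators are transcription factors and genes that modify the response (Irf7, Irf9, Stat2, Isg15, Usp18, Parp9, Parp14, Dtx3l, Trim25, Trim30a and Ifi35). The 5 sensors recognise viral RNA or unusual nucleic acid (Ifih1, Ddx58, Dhx58, Zbp1 and Eif2ak2). The 18 effectors act on viral RNA, proteins or particles (Ifit1, Ifit2, Ifit3, Ifit3b, Ifi44, Oasl1, Oasl2, Oas1a, Oas2, Oas3, Mx1, Mx2, Rsad2, Cmpk2, Rtp4, Bst2, Xaf1 and Samd9l). The 9 interferon-inducible GTPases are Tgtp1, Tgtp2, Igtp, Irgm1, Irgm2, Iigp1, Gbp2, Gbp3 and Gbp7. They belong to families that attack the vacuoles of intracellular microbes, though some members, such as Irgm1 and Igtp, are regulatory.

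Promoter sequences are shown because most of the genes moved together with passage, and because many of the promoters hold the same element. They come from RefSeq, build GRCm38.p6, and run from 250 bases before to 50 bases after a gene's start on the strand of the gene. Of the 43 genes, 33 were matched to a promoter; the other 10 were Usp18, Parp9, Parp14, Dhx58, Zbp1, Oas2, Mx1, Mx2, Rtp4 and Iigp1. The ISRE was searched as GAAANNGAAA on both strands and is printed in capitals. The promoter of Isg15 at chr4:156200769-156201068 (minus strand) held 3 overlapping matches, the nearest beginning 66 bases before the start. The promoter of Ifit1 at chr19:34640639-34640938 (plus strand) held 2 matches that read on the opposite strand, the nearest beginning 85 bases before the start.
Isg15: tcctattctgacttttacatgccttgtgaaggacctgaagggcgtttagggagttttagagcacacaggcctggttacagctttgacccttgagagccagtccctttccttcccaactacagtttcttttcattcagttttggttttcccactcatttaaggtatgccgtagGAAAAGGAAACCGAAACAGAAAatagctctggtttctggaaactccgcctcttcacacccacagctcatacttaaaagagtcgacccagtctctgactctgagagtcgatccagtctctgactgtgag
Ifit1: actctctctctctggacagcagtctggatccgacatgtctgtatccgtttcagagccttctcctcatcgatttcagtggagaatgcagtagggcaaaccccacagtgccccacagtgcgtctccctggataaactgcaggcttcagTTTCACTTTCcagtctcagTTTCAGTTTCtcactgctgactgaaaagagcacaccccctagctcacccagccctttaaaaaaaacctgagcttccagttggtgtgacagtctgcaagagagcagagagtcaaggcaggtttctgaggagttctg

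An ISRE match was present in 21 of the 33 matched genes (63.6%), and in 3.99% of the 27025 genes of the promoter table. Every matched GTPase (8 of 8) and sensor (3 of 3) held it, as did 7 of 14 effectors and 3 of 8 regulators. The GAS letters TTCNNNGAA, which read the same on both strands, were found in 10 of the 33 (30.3%) and in 9.55% of all genes. The same shares over the 32851 promoters, of which some genes have several, were 3.44% for ISRE and 8.3% for GAS. The 2 motifs overlapped in 24 of the 149 promoters that held both, Bst2 among the genes here. A match is a stretch of letters and says nothing about whether a factor binds there.

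Among the GTPase genes, Tgtp1, Tgtp2, Igtp and Irgm2 carried the motif in closely related surroundings, and the 3 Gbp genes carried it on the opposite strand with other letters around it. The 40-base stretches around the match are given below on the strand of each gene, with the ISRE letters, or overlapping matches, in capitals. Tgtp1 lies at chr11:48992299-48992338 (minus), Tgtp2 at chr11:49064258-49064297 (minus), Igtp at chr11:58199507-58199546 (plus), Irgm2 at chr11:58214898-58214937 (plus) and Irgm1 at chr11:48871420-48871459 (minus). Gbp2 lies at chr3:142620589-142620628, Gbp3 at chr3:142559990-142560029 and Gbp7 at chr3:142530268-142530307, all on the plus strand. Ifit3 at chr19:34583392-34583431 and Ifit3b at chr19:34607788-34607827 (both plus) are added because they are near copies.
Tgtp1: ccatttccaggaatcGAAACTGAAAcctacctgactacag
Tgtp2: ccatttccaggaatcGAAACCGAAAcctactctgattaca
Igtp: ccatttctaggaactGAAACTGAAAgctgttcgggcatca
Irgm2: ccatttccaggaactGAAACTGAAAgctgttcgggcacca
Irgm1: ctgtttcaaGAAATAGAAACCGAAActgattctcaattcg
Gbp2: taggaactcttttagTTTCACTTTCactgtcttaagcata
Gbp3: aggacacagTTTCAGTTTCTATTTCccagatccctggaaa
Gbp7: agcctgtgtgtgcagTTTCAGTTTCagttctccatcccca
Ifit3: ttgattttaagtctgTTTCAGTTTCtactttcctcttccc
Ifit3b: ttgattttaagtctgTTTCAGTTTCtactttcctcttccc

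In Tgtp1, Tgtp2, Igtp and Irgm2 a GAS match stood 2 bases before the ISRE. Its letters were TTCCAGGAA in Tgtp1, Tgtp2 and Irgm2, and TTCTAGGAA in Igtp. The ISRE of these 4 genes lay between 34 bases (Igtp) and 77 bases (Tgtp1) before the start. Irgm1, the other member of this family in the promoter table, and the 3 Gbp genes had no GAS within that distance; in Gbp7 the nearest was 25 bases away. Ifit3 and Ifit3b had identical letters over the 40 bases. Of the 300 bases of their promoters, 258 (86%) were identical when aligned, with 80 gap bases. For Tgtp1 and Tgtp2 there were 211 (70.3%), with 30 gap bases. Both shares are of all 300 bases, including those opposite gaps, and not of the aligned bases alone.

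Library totals were 27361852 (passage 2), 67760880 (passage 3) and 30473493 (passage 4) expected counts in KO, and 42335628, 41933793 and 24853121 in WT. Xist, the RNA of the inactive X chromosome, was between 417 and 567 CPM in KO and between 0.118 and 0.301 CPM in WT, and Y-linked genes ran the other way, so genotype and the sex of the culture cannot be told apart. The median of these 5 genes, Xist included, was 0, 0 and 0.42 TPM in KO at passages 2, 3 and 4. In WT it was 17.2, 13.4 and 12.4 TPM. The KO passage 4 library thus held a trace of Y-linked RNA, whose source was not tested. The genotype was taken from the library titles; in 2 of the libraries titled KO, those of passages 3 and 4, the genotype tag says WT. Fibroblast markers, among them collagen I and III, vimentin and PDGF receptors, had a summed level of 10829 to 11930 TPM in KO. In WT it was 15579 to 20938 TPM, so the cell type label was borne out in both, but the levels differed. With passage left out of the model, edgeR called 5 of the 10 lower in KO and 0 higher (adjusted p under 0.05). Their median log2 change was -0.94. Over all 16603 genes tested, 257 were lower and 155 higher. The bearing of this on the comparisons of KO with WT was not tested. Markers of macrophages were also present, and their values are given beside the passage result. Lymphoid and plasmacytoid markers were near 0, with Cd3e and Siglech at 0 in every library.

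All 43 genes were expressed well above the floor of detection, and all passed the filter on low counts. Their median level was 49.6, 70.4 and 93.5 TPM (transcript abundance corrected for length) in KO at passages 2, 3 and 4, against 68.7, 58 and 86 TPM in WT. The median of all 16603 genes tested was between 10.2 and 12.7 TPM. The interferon-stimulated genes stood at a median percentile of 81.8, 86.1 and 89.4 in KO and of 86.5, 86.1 and 90 in WT. Their summed level was 3353, 4661 and 6394 TPM in KO, against 3844, 4023 and 5986 TPM in WT.

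On the TPM scale the most abundant gene was Bst2, which encodes tetherin, a membrane protein that holds budding virus particles, or Isg15, a ubiquitin-like modifier. Bst2 had 420, 602 and 660 TPM in KO and 346, 453 and 593 TPM in WT. Isg15 had 347, 487 and 541 TPM in KO and 330, 458 and 651 TPM in WT. The order of these 2 genes changed between libraries and their ranges overlapped. By the median over the 6 libraries Ifit3 came next, with 175 to 520 TPM in KO and 234 to 485 TPM in WT, and then Oasl2, with 185 to 324 TPM in KO and 228 to 326 TPM in WT. The ranges of these genes overlapped, as did that of Irgm1, with 166 to 380 TPM in KO and 147 to 279 TPM in WT. At the low end stood Mx1, at 2.37, 2.23 and 4.57 TPM in KO against 5.83, 5.25 and 5.51 TPM in WT, and Oas3, at 4.36, 8.59 and 12.1 TPM in KO against 5.09, 7.24 and 8.63 TPM in WT.

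**Figure D1:**
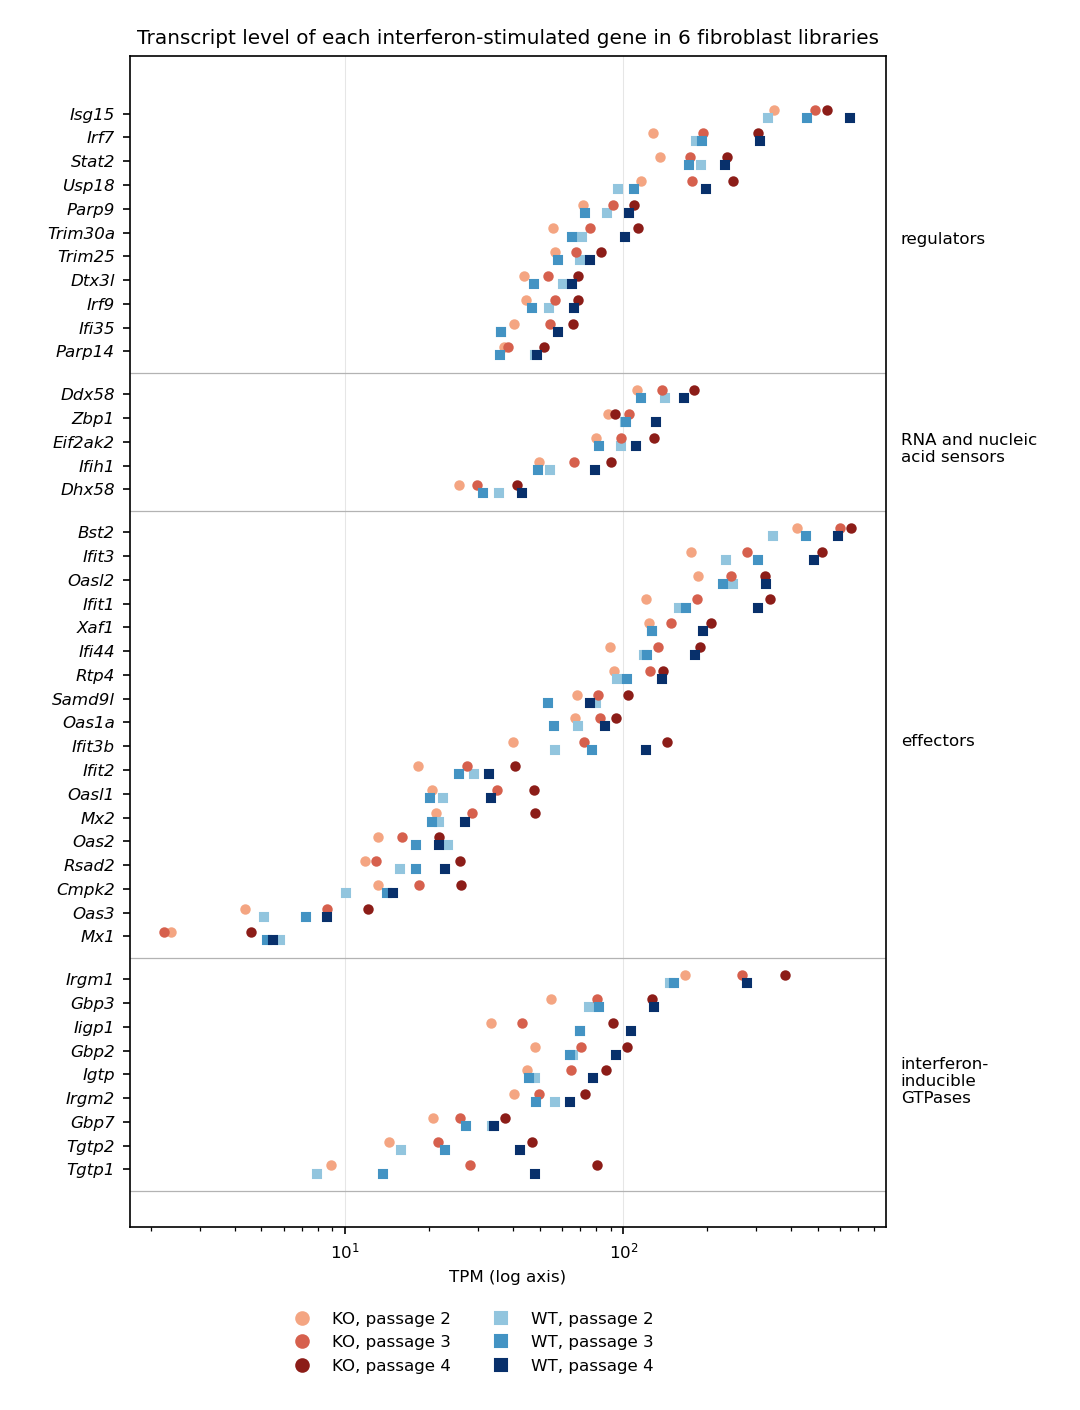
Level of each of the 43 genes in TPM (log axis), by role, with 1 circle per KO library and 1 square per WT library and darker colours for later passages. Within most rows the passage 4 libraries lie to the right of the passage 2 libraries, and in the Mx1 row the KO circles lie left of the WT squares.

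The interferon-stimulated genes rose with passage in both genotypes. Because their list was chosen with earlier results of these data known, the shares below describe the list and are not an independent test. Of the 43, 28 (65.1%) rose and 0 fell at a Benjamini-Hochberg adjusted p under 0.05 in edgeR's quasi-likelihood test of a linear slope with genotype as a covariate, where 2.78% of all genes tested rose and 3.48% fell. All 43 slopes were positive, with a median of 0.32 on the log2 scale per passage, against 0.00 for all genes tested. CPM (counts relative to TMM-scaled library size) rose at each passage in both genotypes in 32 of the 43 (74.4%), against 9.47% of all genes. The genes that rose were 6 of 11 regulators (median slope 0.24), 1 of 5 sensors (0.21), 14 of 18 effectors (0.33) and 7 of 9 GTPases (0.49). From passage 2 to passage 4 the median gene rose by 0.64 on the log2 scale in KO and by 0.62 in WT.

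The number called depended on single libraries, while the median slope did not. It was 9 without the KO passage 2 library, 17 without KO passage 3, 10 without KO passage 4, 12 without WT passage 2, 30 without WT passage 3 and 13 without WT passage 4, with median slopes of 0.30 to 0.34. The genes called in all 6 of these fits were Irf7, Ifit1, Ifit3, Ifit3b, Tgtp1, Tgtp2, Irgm1 and Gbp3. The other 20 called genes lost their call in at least 1 of them, and all 28 kept a positive slope in all 14 alternatives. With no genotype term, 5 genes were called (Ifit1, Ifit3, Ifit3b, Tgtp1 and Tgtp2).

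**Figure D2:**
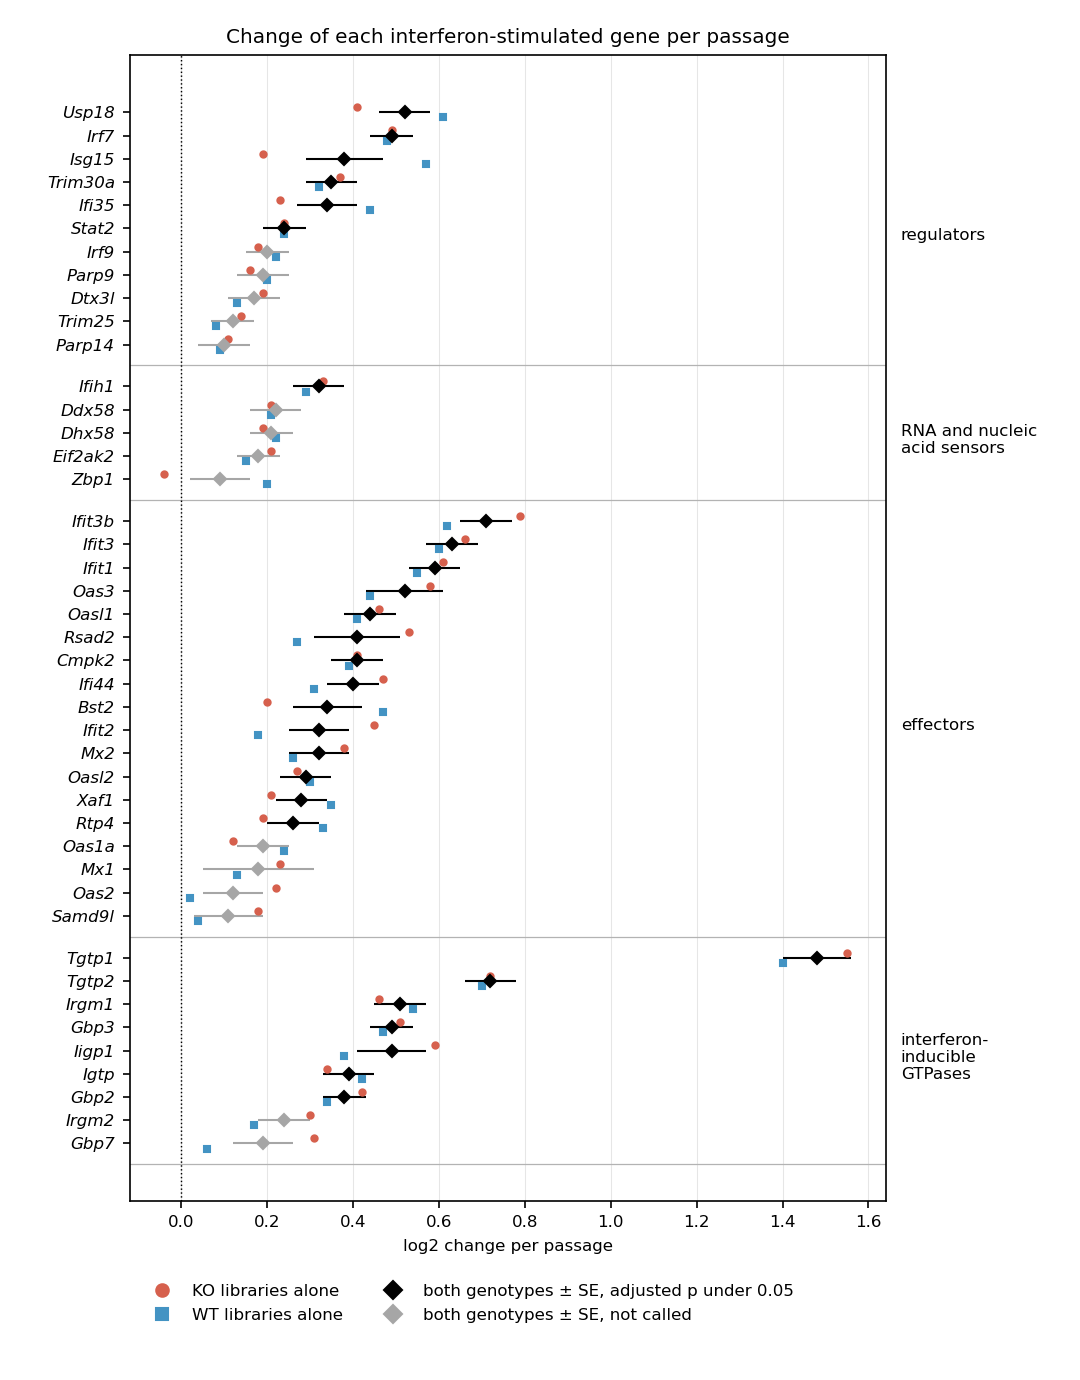
Change in log2 expression per passage for each gene, by role, with diamonds for the slope over both genotypes and bars of 1 SE (black where the adjusted p is under 0.05, grey otherwise), circles for KO libraries alone and squares for WT libraries alone. All 43 diamonds lie right of 0, with Tgtp1 farthest at 1.48, and the circle of Zbp1 is at -0.04.

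Among the regulators, the transcription factor Irf7, which amplifies type I interferon production, rose by 0.49 ± 0.05 per passage (log2, SE; adjusted p = 0.00289). It had 119, 164 and 238 CPM in KO at passages 2, 3 and 4, against 149, 194 and 289 CPM in WT. It rose at each step in both genotypes, was lower in the KO library at every passage, and the ranges of the genotypes overlapped. Usp18, a protease that removes ISG15 from proteins and dampens receptor signalling, rose by 0.52 ± 0.06 (adjusted p = 0.0048). It had 117, 162 and 210 CPM in KO, against 86, 118 and 201 CPM in WT, so that the KO library was above the WT library of its passage each time. Isg15 had 129, 164 and 170 CPM in KO, against 111, 185 and 243 CPM in WT, and a slope of 0.38 ± 0.09 (adjusted p = 0.0461). The KO library was the higher at passage 2 and the lower at passages 3 and 4.

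Trim30a, a TRIM-family protein, had 124, 154 and 208 CPM in KO and 144, 158 and 225 CPM in WT (slope 0.35 ± 0.06, adjusted p = 0.0134). Ifi35 had 29.4, 36.6 and 41 CPM in KO and 23.9, 28.9 and 43.9 CPM in WT (slope 0.34 ± 0.07, adjusted p = 0.0303). Stat2, the subunit of ISGF3 that carries its activation domain, had 293, 348 and 414 CPM in KO and 367, 409 and 508 CPM in WT (slope 0.24 ± 0.05, adjusted p = 0.0334). In these 3 genes passage 4 was the highest library of each genotype. The 5 regulators not called were Irf9, the DNA-binding subunit of ISGF3, the ADP-ribosyltransferases Parp9 and Parp14, the ubiquitin ligase Dtx3l that pairs with Parp9, and Trim25, the ligase that activates RIG-I. Their slopes were between 0.10 (Parp14) and 0.20 (Irf9), with adjusted p from 0.0692 to 0.421. The starts of Parp9 and Dtx3l overlap on opposite strands, so reads from the overlap cannot be told apart without a strand setting.

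Of the sensors, only Ifih1 passed the test. Ifih1 encodes MDA5, which binds long double-stranded RNA. It had 97.7, 117 and 157 CPM in KO, against 102, 105 and 153 CPM in WT, and a slope of 0.32 ± 0.06 (adjusted p = 0.0245). Ddx58, which encodes RIG-I, had 226, 257 and 307 CPM in KO and 254, 255 and 341 CPM in WT (slope 0.22 ± 0.06, adjusted p = 0.0686). Dhx58, which encodes LGP2, had 30.4, 32.5 and 40.2 CPM in KO and 38.7, 42.8 and 52.3 CPM in WT (slope 0.21 ± 0.05, adjusted p = 0.0666). Both were highest at passage 4 in each genotype but missed the threshold. Eif2ak2, the double-stranded RNA kinase PKR, had 183, 203 and 246 CPM in KO and 210, 210 and 258 CPM in WT (slope 0.18 ± 0.05, adjusted p = 0.101). Zbp1, a sensor of Z-form nucleic acid, had 71.3, 77.1 and 68.4 CPM in KO and 82.7, 93.9 and 109 CPM in WT (slope 0.09 ± 0.07, adjusted p = 0.511). It was the single gene of the 43 that was lower at passage 4 than at passage 2 in KO.

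The effectors with the steepest slopes were Ifit3b, Ifit3 and Ifit1, of the IFIT family whose proteins bind viral RNA lacking host cap marks. All 4 IFIT genes rose, and they lie within 99.3 kb of chromosome 19. Ifit1 had 190, 263 and 449 CPM in KO, against 224, 286 and 479 CPM in WT (slope 0.59 ± 0.06, adjusted p = 0.00319). Ifit3 had 177, 255 and 445 CPM in KO, against 213, 336 and 492 CPM in WT (slope 0.63 ± 0.06, adjusted p = 0.00163). Ifit3b had 46.9, 76.7 and 141 CPM in KO, against 59.9, 97.9 and 142 CPM in WT (slope 0.71 ± 0.06, adjusted p = 0.00163). In these 3 genes the KO library was below the WT library at every passage, while each genotype's passage 4 library lay above both of the other genotype's earlier libraries. Ifit3 and Ifit3b share 45.4% and 39.4% of the 64-base words of their transcripts with other genes, so the split between them is uncertain; with their counts summed, the slope was 0.65 ± 0.06 (adjusted p = 0.00168). Ifit2 rose less, with 41.3, 56.2 and 77.5 CPM in KO and 58, 62.6 and 74.5 CPM in WT (slope 0.32 ± 0.07, adjusted p = 0.0392).

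The OAS proteins make the second messenger that activates RNase L, and OASL proteins are their relatives. Oas3 had 11.6, 21.3 and 26.8 CPM in KO, against 12.9, 20.9 and 23.6 CPM in WT (slope 0.52 ± 0.09, adjusted p = 0.0176). Oasl1 had 25.4, 38.7 and 48.7 CPM in KO, against 22, 25.9 and 39.1 CPM in WT (slope 0.44 ± 0.06, adjusted p = 0.00939). Oasl2 had 211, 241 and 310 CPM in KO, against 245, 268 and 370 CPM in WT (slope 0.29 ± 0.06, adjusted p = 0.0254). These 3 genes rose at each step in both genotypes. Oas1a (slope 0.19) and Oas2 (slope 0.12) were not called, and Oas1a shares 51.3% of its words with other genes. Oas2 had 30.1, 32.6 and 41.5 CPM in KO and 46.4, 43 and 47.7 CPM in WT, with each KO library below each WT library.

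Rsad2 (viperin, an enzyme that makes a chain-terminating nucleotide) and its neighbour Cmpk2, a mitochondrial nucleotide kinase, both had a slope of 0.41. Rsad2 had 23, 25.8 and 48.4 CPM in KO and 27.1, 37.9 and 39.2 CPM in WT (SE 0.10, adjusted p = 0.0478). Cmpk2 had 18.9, 26.5 and 33.7 CPM in KO and 15.2, 22.2 and 26.2 CPM in WT (SE 0.06, adjusted p = 0.0126). The KO library was the lower for Rsad2 at passages 2 and 3 and the higher at passage 4, whereas for Cmpk2 it was the higher at every passage. Ifi44 had 112, 160 and 220 CPM in KO and 145, 178 and 224 CPM in WT (slope 0.40 ± 0.06, adjusted p = 0.00897). Mx2 belongs to a family of dynamin-like antiviral GTPases, but the annotation used here classes it as a polymorphic pseudogene. Mx2 had 26.5, 30.3 and 45.2 CPM in KO and 23, 25.7 and 32.9 CPM in WT (slope 0.32 ± 0.07, adjusted p = 0.0312). Its neighbour Mx1, which blocks influenza-type viruses, was not called for passage (slope 0.18 ± 0.13, adjusted p = 0.49).

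Bst2 had 179, 233 and 238 CPM in KO and 133, 209 and 254 CPM in WT (slope 0.34 ± 0.08, adjusted p = 0.047). Xaf1, a pro-apoptotic protein, had 51.6, 56.5 and 70.1 CPM in KO and 49.5, 57.1 and 80 CPM in WT (slope 0.28 ± 0.06, adjusted p = 0.0303). Rtp4 had 57.4, 70.9 and 75.7 CPM in KO and 55.8, 71 and 87.6 CPM in WT (slope 0.26 ± 0.06, adjusted p = 0.0334). In these 3 genes the KO and WT libraries were interleaved. Samd9l was the effector with the shallowest slope, at 0.11 ± 0.08 (adjusted p = 0.472).

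The GTPases held the steepest slope of all. Tgtp1, a member of the IRG family of immunity-related GTPases, had 10.4, 30.4 and 90.9 CPM in KO, against 8.32, 16.6 and 57.8 CPM in WT, and a slope of 1.48 ± 0.08 (adjusted p = 0.000748). Passage 4 was 8.72-fold above passage 2 in KO and 6.94-fold in WT. Tgtp2 had 23.6, 32.5 and 64.6 CPM in KO, against 23.8, 39.3 and 63 CPM in WT (slope 0.72 ± 0.06, adjusted p = 0.00188). The genes are near copies, with 79.0% of the words of Tgtp1 and 83.6% of those of Tgtp2 found in other genes, so the reads may be split wrongly between them. With both summed the level was 34, 62.9 and 156 CPM in KO and 32.1, 55.9 and 121 CPM in WT, and the slope was 1.03 ± 0.07 (adjusted p = 0.00117).

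Irgm1, a regulatory IRG protein that protects host membranes, had 215, 312 and 413 CPM in KO and 170, 210 and 358 CPM in WT (slope 0.51 ± 0.06, adjusted p = 0.00478). Iigp1, an IRG effector that coats parasite vacuoles, had 55.7, 66 and 128 CPM in KO and 106, 126 and 180 CPM in WT (slope 0.49 ± 0.08, adjusted p = 0.0144). Igtp, another regulatory IRG protein, had 53, 69.2 and 85.9 CPM in KO and 51, 58.6 and 91.8 CPM in WT (slope 0.39 ± 0.06, adjusted p = 0.0111). The KO library was above WT at every passage for Irgm1, below it at every passage for Iigp1, and on either side for Igtp. The annotated spans of Igtp and Irgm2 overlap on the same strand, and Irgm2 had a slope of 0.24 ± 0.06 (adjusted p = 0.0577). The guanylate-binding proteins assemble on vacuoles and bacteria. Gbp3 had 78.1, 108 and 160 CPM in KO and 97.7, 128 and 189 CPM in WT (slope 0.49 ± 0.05, adjusted p = 0.00254). Gbp2 had 71.5, 94.7 and 130 CPM in KO and 87.9, 103 and 140 CPM in WT (slope 0.38 ± 0.05, adjusted p = 0.00729). Both were lower in the KO library at every passage, and Gbp7, the third of the cluster, was not called (slope 0.19 ± 0.07, adjusted p = 0.157).

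**Figure D3:**
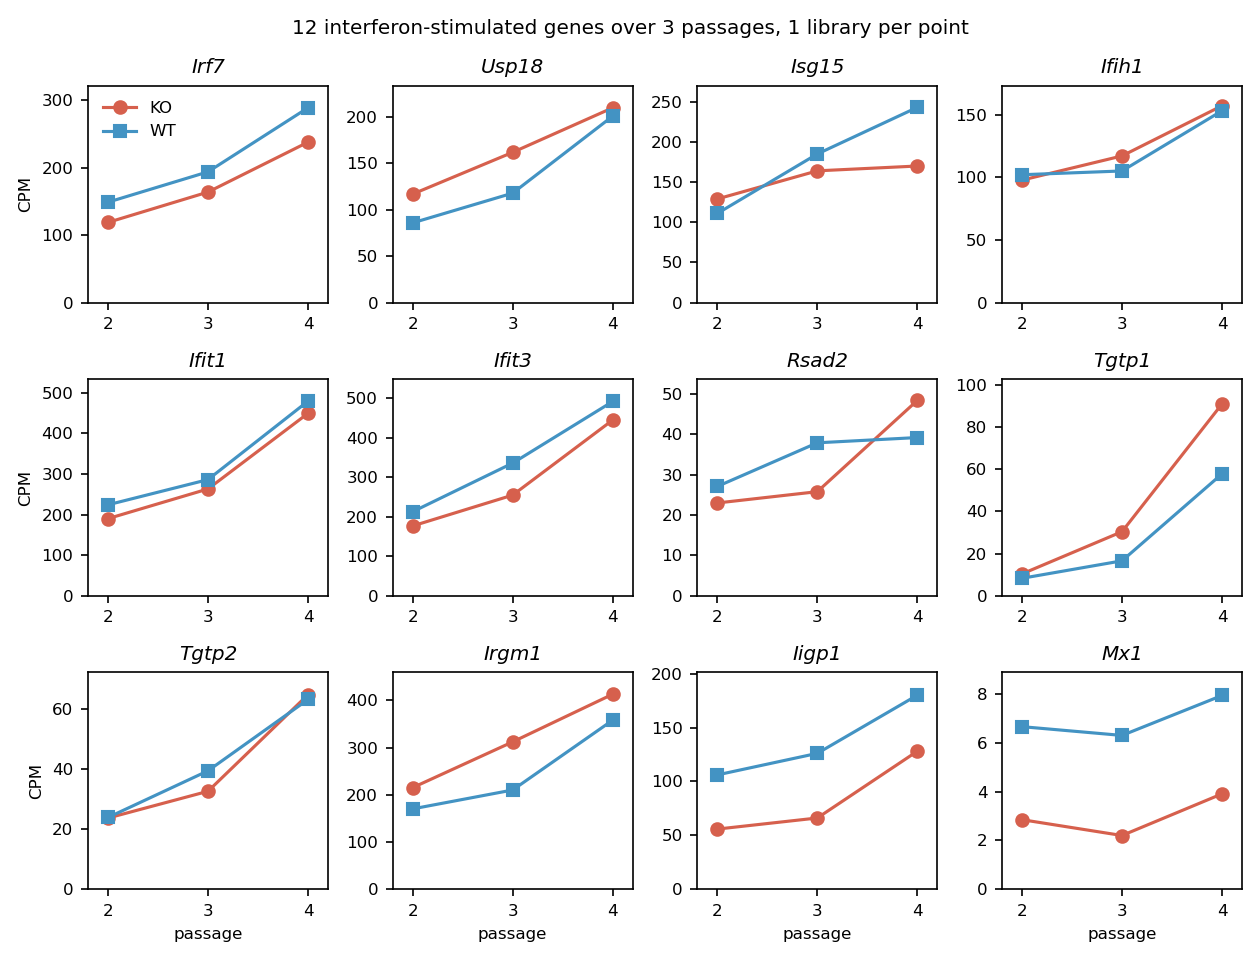
CPM (linear axis from 0) of 12 interferon-stimulated genes at passages 2, 3 and 4, with circles for KO and squares for WT and 1 library per point. Tgtp1 reaches 90.9 CPM in KO and 57.8 CPM in WT at passage 4, while Mx1 stays between 2.2 and 3.91 CPM in KO and between 6.31 and 7.95 CPM in WT.

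Neighbouring genes were all called in some genomic clusters and in others not. The 43 genes lie on 15 chromosomes, and 24 of them lie in 9 clusters. All 4 Ifit genes, both Oasl genes (within 41 kb of chromosome 5), Rsad2 and Cmpk2 (within 37.1 kb of chromosome 12), and Tgtp1, Tgtp2 and Irgm1 (within 202 kb of chromosome 11) were called. None of Parp9, Parp14 and Dtx3l (within 140 kb of chromosome 16) was called. The 21 genes with an ISRE match in the promoter had a median slope of 0.38 and 16 were called, against a median of 0.30 and 8 called for the 12 genes with no match. This difference was not tested.

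The rise was present within each genotype alone. In KO libraries alone 16 of the 43 (37.2%) rose, against 1.2% of all genes, and in WT libraries alone 8 (18.6%) rose, against 0.494% of all genes; each of these fits has 1 residual degree of freedom. The median slope was 0.31 in KO and 0.31 in WT. The difference between the slopes, KO minus WT, was called for 0 of the 43 genes and for 0% of all genes in edgeR, with a median of 0.05 over the 43. At an unadjusted p under 0.05 there were 3 of the 43, against 1137 of the 16603 genes tested. DESeq2 and limma on TPM also called 0 of the 43. At an unadjusted p under 0.05 they gave 1 and 2 of the 43, against 735 and 1659 of all genes. The 3 in edgeR were Isg15, steeper in WT (-0.37 ± 0.13, adjusted p = 0.655), and Ifit2 (0.27 ± 0.10, adjusted p = 0.677) and Gbp7 (0.26 ± 0.10, adjusted p = 0.701), steeper in KO. These p-values do not show that the slopes were equal.

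The genes of the interferon pathway itself did not rise as a group. From a list of 38 ligands, receptors, kinases and factors, 37 were matched and 30 were tested. Of these 30 genes, 1 rose and 2 fell with passage, and the median slope was 0.04. Over all genes tested, 2.78% rose and 3.48% fell. The transcription factors Irf1 (slope -0.08, adjusted p = 0.51), Irf3 (-0.04, adjusted p = 0.781), and the feedback inhibitor Socs1 (0.04, adjusted p = 0.894), were not called. Il6, an inflammatory cytokine, fell with a slope of -0.73 ± 0.07 (adjusted p = 0.00217), and Irf8, a factor of myeloid cells, with a slope of -1.26 ± 0.26 (adjusted p = 0.0309).

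The interferon transcripts were low, and none passed the filter. Ifnb1, which encodes interferon beta, had 0.0721, 0.129 and 0.699 CPM in KO and 0.0473, 0.301 and 0.166 CPM in WT. These values rest on 2, 9 and 22 counts in KO and on 2, 12 and 4 counts in WT. Ifna4, an interferon alpha gene, had 1, 7 and 6 counts in KO and 1, 2 and 2 counts in WT. Where a library has no count, its true level may reach 3 counts, which is 0.0431 to 0.124 CPM. Ifna1 and Ifng were at 0 in every library, and for both a level under that limit was not detectable at this depth.

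A second list of 67 further interferon-stimulated genes, none of them among the 43, was also chosen with earlier results of these data known. It gave 62 tested genes, of which 12 rose with passage and 0 fell (median slope 0.17). Over all genes tested, 2.78% rose and 3.48% fell. The smallest adjusted p-values were those of Lgals3bp (slope 0.40 ± 0.05, adjusted p = 0.00682), Parp11 (0.41 ± 0.06, adjusted p = 0.0123) and Gbp9 (0.57 ± 0.09, adjusted p = 0.0146). Lgals3bp, a secreted glycoprotein, had 417, 581 and 710 CPM in KO and 442, 581 and 791 CPM in WT. Gbp9, a further guanylate-binding protein, had 31.4, 41 and 77.4 CPM in KO and 50.3, 51.6 and 99.3 CPM in WT. The median of this list lay between that of the 43 genes and that of all genes tested.

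Most markers of macrophages, cells that respond strongly to interferon, moved the opposite way with passage. Of 19 markers 18 were tested and 16 fell, with a median slope of -1.28, where 3.48% of all genes tested fell. Among the 18, 1 had a positive slope, of 0.32, and was not called. Their summed level was 426, 148 and 80.2 TPM in KO, against 632, 288 and 86.9 TPM in WT. Of the defining markers, Adgre1 (F4/80) had 25.1, 6.23 and 3.24 CPM in KO and 40.3, 14.9 and 3.93 CPM in WT. Csf1r, the receptor for macrophage colony-stimulating factor, had 10.5, 5.7 and 2.67 CPM in KO and 16.7, 7.41 and 4.3 CPM in WT, and 0 of the 19 markers were at 0 in all libraries. Of 9 tested endothelial markers 4 fell, and of 10 fibroblast markers 0 rose or fell, where 2.78% of all genes rose and 3.48% fell. For a set of 10 genes, a count of 0 is near these shares. The part of these changes in the passage result was not tested, and in bulk RNA fewer cells of a type and less RNA per cell cannot be told apart.

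**Figure D4:**
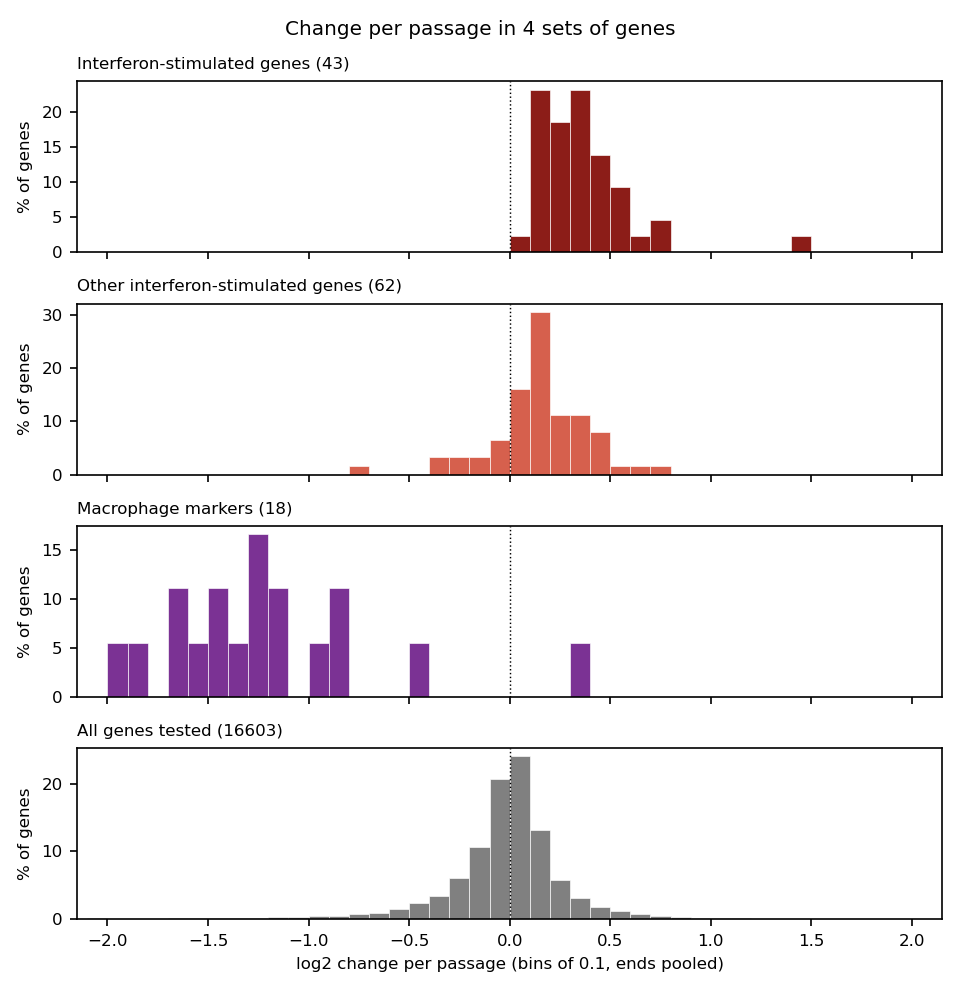
Histograms of the log2 change per passage (bins of 0.1) for the 43 interferon-stimulated genes, 62 other interferon-stimulated genes, 18 macrophage markers and all 16603 genes tested, as a percent of each set. The 43 genes lie wholly above 0 with a median of 0.32, all genes centre on 0.00, and the macrophage markers centre on -1.28.

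Between KO and WT, with passage left out of the model, none of the 43 genes was called by edgeR, against 2.48% of all genes tested. At an unadjusted p under 0.05 there were 4 of the 43 (Dhx58, Zbp1, Oas2 and Mx1), against 3543 of the 16603 genes tested. DESeq2 called 1 of the 43 (Mx1), against 1661 of all genes, and limma on TPM called 0, against 387. The median log2 change, KO over WT, was -0.12 over the 43 and -0.01 over all genes; 13 genes were positive and 30 negative. It was -0.21 within passage 2, -0.10 within passage 3 and -0.10 within passage 4. The sign of the median rested on single libraries, since it was 0.03 without the KO passage 2 library and 0.07 without the WT passage 4 library. It was -0.31 without the KO passage 4 library and -0.23 without the WT passage 2 library. All 3 KO libraries lay below all 3 WT libraries for 3 of the 43 genes (6.98%; Zbp1, Oas2 and Mx1), against 14.1% of all genes, and above them for 0, against 13.1% of all genes.

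Libraries of the same passage deviated together, though weakly at passage 3, and with passage as a block 4 of the 43 genes were called. Of these, 1 was higher in KO (2.33%, against 4.69% of all genes) and 3 were lower (6.98%, against 6.37% of all genes). Both shares were near or under the background, and genotype and sex cannot be told apart in these libraries. Mx1 was lower in KO, with 2.85, 2.2 and 3.91 CPM in KO against 6.67, 6.31 and 7.95 CPM in WT. The groups did not overlap, and the log2 change was -1.26 ± 0.18 with the block (adjusted p = 0.00917) and -1.23 ± 0.25 without it (adjusted p = 0.052). Over the 13 alternatives its change ran from -1.47 to -0.73 and its adjusted p from 0.000328 to 0.872, the last when the genotype tag replaced the title.

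Iigp1 was lower in the KO library at every passage, with log2 differences, KO minus WT, of -0.92, -0.94 and -0.49. With the block its change was -0.79 ± 0.11 (adjusted p = 0.00919) and without it -0.72 ± 0.34 (adjusted p = 0.278). Because the gene also rose with passage, the ranges of the genotypes overlapped. Over the 13 alternatives the change of Iigp1 ran from -1.17 to -0.48 and its adjusted p from 0.00919 to 0.872. Dhx58 changed by -0.38 ± 0.09 with the block (adjusted p = 0.0428) and by -0.38 ± 0.15 without it (adjusted p = 0.219), and it was lower in the KO library at each passage. Over its 13 alternatives the change was -0.50 to -0.20 and the adjusted p 0.0428 to 0.872. Tgtp1 was higher in KO by 0.63 ± 0.13 with the block (adjusted p = 0.0253) and by 0.68 ± 0.90 without it (adjusted p = 0.715). That call rested on the split from its near copy, since Tgtp1 and Tgtp2 summed gave 0.21 ± 0.09 with the block (adjusted p = 0.189). Over 15 alternatives the change of Tgtp1 ran from -1.97 (genotype tag) to 1.81 (without the WT passage 4 library), and its adjusted p from 0.0253 to 0.918. It was also negative without the KO passage 4 library, at -0.41.

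**Figure D5:**
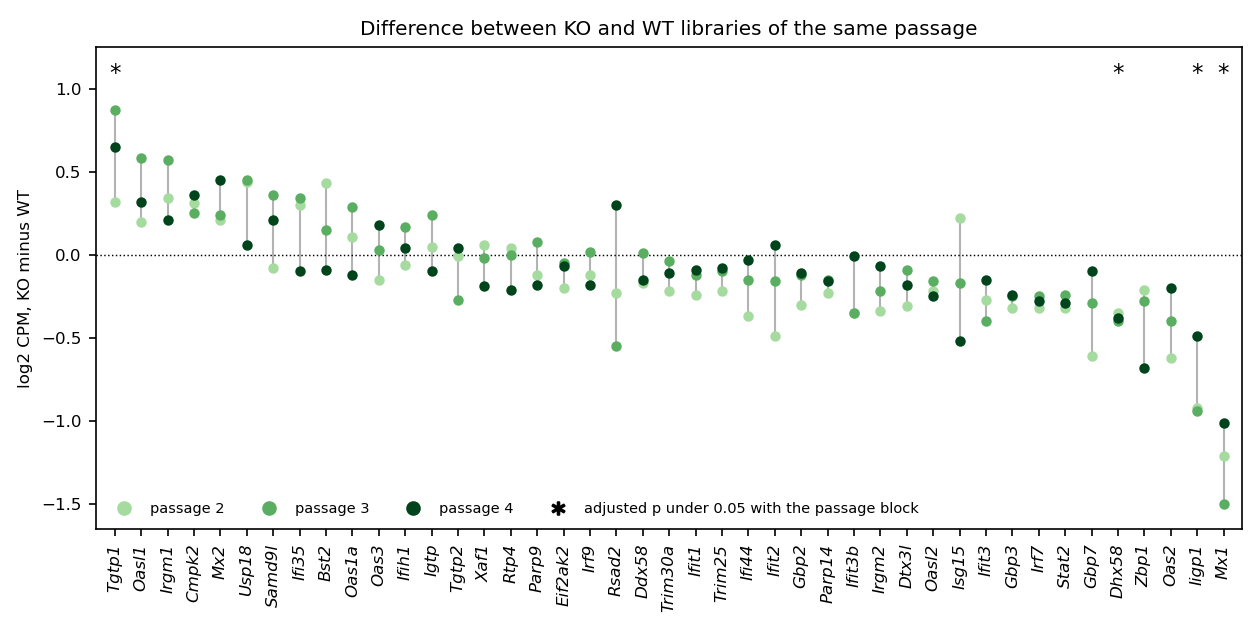
Difference in log2 CPM between the KO and the WT library of the same passage for each of the 43 genes, ordered by its log2 change over all libraries, with 1 point per passage and a star where the adjusted p with the passage block is under 0.05. Mx1 lies lowest, between -1.50 and -1.01, Tgtp1 lies highest, between 0.32 and 0.87, and the points of most other genes lie nearer to 0 than those of Mx1.

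Without the block, 257 of the 16603 genes tested were called lower in KO. Of the 30 pathway genes tested, 1 was called lower in that fit. This was Ifnar1, a chain of the type I interferon receptor, with 96.9, 90.9 and 93.9 CPM in KO against 123, 125 and 125 CPM in WT (log2 change -0.41, adjusted p = 0.0494). The KO and WT libraries did not overlap. With the block its change was -0.41 (adjusted p = 0.0266), and 3 more were called lower, namely Ifnar2, the other chain (-0.49, adjusted p = 0.0319), the kinase Jak2 (-0.67, adjusted p = 0.0112) and the feedback inhibitor Socs3 (-0.87, adjusted p = 0.0297). Irf1 was at -0.40 without the block (adjusted p = 0.117). In the second list 1 of the 62 tested genes was called lower in KO without the block, a share near that of all genes. It was Slfn5, with 56.4, 37.9 and 58.4 CPM in KO against 110, 88.5 and 97 CPM in WT (-0.95, adjusted p = 0.0395). With the block 9 of the 62 tested genes of that list were lower, Slfn5 among them (-0.97, adjusted p = 0.00541), and 0 were higher, where 6.37% of all genes were lower and 4.69% higher.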

How the data were processed

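RNA of 6 untreated MEF libraries was sequenced. The submitters' processing notes name Trimmomatic 0.39, RSEM and build GRCm38. Not given in the sources used here are the RSEM version, aligner settings, annotation release and strand setting. The authors' deposited gene tables hold expected counts, in which RSEM divides ambiguous reads among genes (12.0% to 15.8% of values were not whole), so near-identical copies have uncertain counts. The same deposited tables give TPM, used for levels, FPKM, which entered no test, and effective lengths, used as an alternative offset.

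Identifiers were matched to GENCODE release M21 (GRCm38; 55227 of 55487, 99.5%), and the unmatched held 0.442% to 0.683% of a library's counts. Expected counts were rounded, filtered by genotype (minimum count 10; 16603 genes left), scaled by TMM and tested with the 2-sided quasi-likelihood test of edgeR 4.0.16 in R 4.3.3, with Benjamini-Hochberg adjustment over all genes and a threshold of 0.05. Residual degrees of freedom were 4 for genotype alone, 3 for a linear passage slope with genotype, and 2 for the difference of slopes. Alternatives used DESeq2 1.42.0, limma 3.58.1 on log2(TPM + 1), no filter, effective lengths, the genotype tag, each library left out, and passage as a block.

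Deviations from the genotype means correlated between KO and WT libraries of the same passage, weakly at passage 3. The r was 0.49, 0.14 and 0.42 at passages 2, 3 and 4, across 16603 genes, which are not independent. Other pairs gave -0.43 to -0.00. The deviations within a genotype sum to 0, so these lower values follow in part from the positive ones and are not separate evidence of pairing. The detection floors of 3 counts cover counting error only, while standard errors include the spread between libraries. Shared sequence is the percentage of a gene's 64-base transcript words that occur in another gene. Promoter letters came from RefSeq (GRCm38.p6). The genes and lists were chosen with earlier results of these data known. Values are given for each gene called in any fit, and otherwise for the 3 of each role with the largest difference between genotypes and the 3 with the largest slope. The values of 1 gene of the interferon signalling list are not reported here.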

Additional observations from a re-analysis of the deposited data

How the results depend on the processing

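None of the 28 genes called for passage reversed under the 14 alternatives run for all of them, nor did Tgtp1 and Ifit3 when summed with their copies. Genes called between genotypes numbered 412; they were 1661 with DESeq2, 846 with no filter, 1835 with the replicate block (passage as a factor), 59 without both passage 2 libraries and 0 with the genotype tag, and 38 to 847 without single libraries. Of the 43 interferon-stimulated genes, 1 was lower in KO with DESeq2, 1 with no filter and 3 with the replicate block, which also gave 1 higher, and 0 to 1 were lower without single libraries. Their median genotype change of -0.12 was -0.03 on log2(TPM + 1), -0.45 with the tag, and -0.31 to 0.07 without single libraries. Genes called for passage numbered 1038, and were 1709 with DESeq2, 2443 with no filter, 157 with no genotype term, 501 in KO alone, 259 in WT alone and 278 to 1286 without single libraries. Of the 43, 28 rose, and 5 did with no genotype term, 16 in KO alone, 8 in WT alone and 9 to 30 without single libraries. Genes called for the interaction numbered 0, and were 83 with DESeq2, 289 with no filter, 2 on log2(TPM + 1) and 0 to 10 without single libraries. The median interaction of 0.05 was 0.23 on log2(TPM + 1), where that of all genes was 0.15, and -0.10 to 0.13 without single libraries. The cause of these moves was not tested, except that fits without a library or within 1 genotype hold fewer libraries. The replicate block changed no other call among the 43 genes. Leaving out WT passage 4, at 24853121 counts the shallowest library, moved the genotype median to 0.07. Summing near copies was chosen after seeing the data.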
